A study of Mus musculus with 2 samples.

Results

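Sapcd1 (ENSMUSG00000036185) was followed across the blood cells of 2 single-cell libraries, one from db/db and one from wt mice. It is 1 of 31053 genes in the count tables, and it was chosen because an earlier look at these libraries found its level in B cells far apart between the genotypes. That difference is therefore given as a description and not as a test. The UMIs (unique molecular identifiers, each counting 1 captured RNA molecule) of Sapcd1 were summed over barcodes with 200 to 6000 genes and under 10% of UMIs from mitochondrially encoded genes.

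The db/db library came from male C57BLKs/J mice homozygous for db, aged 21 weeks, and the wt library from male wild-type C57BLKs/J mice of the same age. The db allele disrupts the leptin receptor gene Lepr in the whole animal, and db/db mice are obese and diabetic. Each library came from 3 mice and 200 µl of peripheral blood per group, whose red cells had been lysed before capture by a droplet 3′ method. No mouse can be told from another within a library, so each genotype has 1 sample. No test between the genotypes is possible, and the intervals in parentheses are 95% intervals that cover counting error alone, not the spread between mice.

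The filter kept 6109 of 19912 db/db barcodes, with 20388332 UMIs, and 5727 of 16700 wt barcodes, with 18013804 UMIs. Clustering without Sapcd1 and its neighbours within 1 Mb gave 20 clusters, 4 of them B cells, holding 2078 db/db and 2440 wt cells. Of the 13 B cell markers listed, all were measured, and none passed the calling rule described below between the genotypes. Of all genes tested 1.89% did, so the count says nothing particular to the markers. Their median log2 ratio was -0.23, and they summed to 14113 CPM in db/db and 16404 CPM in wt B cells (CPM here is a gene's UMIs divided by all UMIs of the summed cells, times 1000000). Ratios of db/db over wt ran from 0.585 for Spib, a transcription factor of B cells, to 1.01 for the receptor gene Cd79a, at 2654 CPM in db/db and 2630 CPM in wt. The 15 T cell markers listed summed to 21.4 CPM in db/db and 36.8 CPM in wt B cells. Among them Cd3e had 2 UMIs in db/db and 1 in wt, Cd3d 8 and 19, Trbc2 4 and 20, and Lef1 13 and 60. The libraries shared 91 barcode sequences, of which 13 db/db and 12 wt barcodes were B cells.

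Sapcd1 (suppressor APC domain containing 1) is named for a domain also found in Sapcd2, a protein studied in the orientation of the mitotic spindle. Little is established about Sapcd1 itself, and no role in B cells is assumed here. APC is the scaffold of the complex that marks beta-catenin for destruction, and it also binds microtubule ends. B cells make antibodies, and the blood holds mainly mature follicular cells, with recently arrived transitional cells, B1 cells and memory cells among them. Sapcd1 lies in the class III region of the major histocompatibility complex, a stretch dense in genes with unrelated roles.

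In the GENCODE annotation of GRCm38, the assembly also called mm10, the gene is at chr17:35025959-35028016 on the minus strand. Its protein-coding transcript has 4 exons and 935 bases, 441 of them coding with the stop codon. The last exon runs on past the stop codon to chr17:35025977, the 3′ end of this transcript, from which a 3′ method counts. Its coding end, at chr17:35026365-35026457, is printed as the coding stretch nearest that end. It is read 5′ to 3′ on the minus strand from the GENCODE transcripts, with the stop codon in capitals.
Sapcd1: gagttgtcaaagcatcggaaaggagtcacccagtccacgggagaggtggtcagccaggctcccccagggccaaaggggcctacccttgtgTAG

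Vwa7, a von Willebrand factor A domain gene, runs on the plus strand and overlaps the 3′ end of the Sapcd1 gene by 783 bases. The strand setting of the counting was not given in the sources used here. Vwa7 had 1 UMI in db/db and 3 UMIs in wt B cells. Upstream on the same strand, Msh5 ends 588 bases before Sapcd1 begins. The letters AATAAA, the common polyadenylation hexamer, were searched on the transcript strand in the last 50 bases. They start 22 bases before the end of the protein-coding transcript, 40 bases before the end of 2 others, and are absent from that window of the remaining one. Of 58797 protein-coding transcripts, 40.5% hold the hexamer there.

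Sapcd1 was a moderately expressed gene of db/db B cells and a low one of wt B cells. It had 726 UMIs in the 2078 db/db B cells, or 145 CPM (135 to 156). In the 2440 wt B cells it had 155 UMIs, or 26.2 CPM (22.2 to 30.7). The ratio of CPM, db/db over wt, was 5.54 (4.65 to 6.63), and the counting intervals of the libraries do not overlap. A Sapcd1 UMI was seen in 24.8% of db/db B cells (23.0 to 26.7), at a median of 2200 UMIs per cell, and in 5.29% of wt B cells (4.43 to 6.25), at a median of 2288 UMIs per cell.

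Depth per cell was close between the libraries, and thinning every cell to 1000 UMIs left a like difference. Of 2035 db/db B cells deep enough for this, 269 had a Sapcd1 UMI, a share of 13.2% (11.8 to 14.8). Of 2250 wt B cells, 52 did, a share of 2.31% (1.73 to 3.02), and the ratio of the shares was 5.72 (4.24 to 7.85). In T cells the thinned share was 0.875% (0.239 to 2.23) in db/db and 0% (0 to 0.550) in wt. In neutrophils it was 0% in both, with upper limits of 1.14% in db/db and 2.48% in wt. The db/db B cell share stood above all of these limits. The wt B cell share stood above that of wt T cells, and its interval overlaps the limit of the fewer wt neutrophils.

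Sapcd1 was seen at every depth in both libraries. When B cells were split by depth at the quartiles of both libraries together, Sapcd1 ran from 132 to 170 to 122 to 149 CPM in db/db, shallow to deep. In wt it ran from 20.4 to 21.4 to 21.1 to 32.3 CPM. The interval of the deepest wt cells (25.9 to 39.8) overlaps those of the shallower ones, such as the shallowest (12.1 to 32.2). In db/db B cells, 367 cells had 1 Sapcd1 UMI, 112 had 2, 24 had 3 and 13 had 4 or more, up to 7 in 1 cell. In wt, 108 cells had 1, 16 had 2, 5 had 3 and none had more. An even rate per UMI would put 92.5 db/db cells at 2 UMIs and 14.1 at 3, so counts were spread somewhat less evenly over B cells than depth alone would give in db/db. In wt, the even rate gives 0.183 cells at 3 UMIs.

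**Figure D1:**
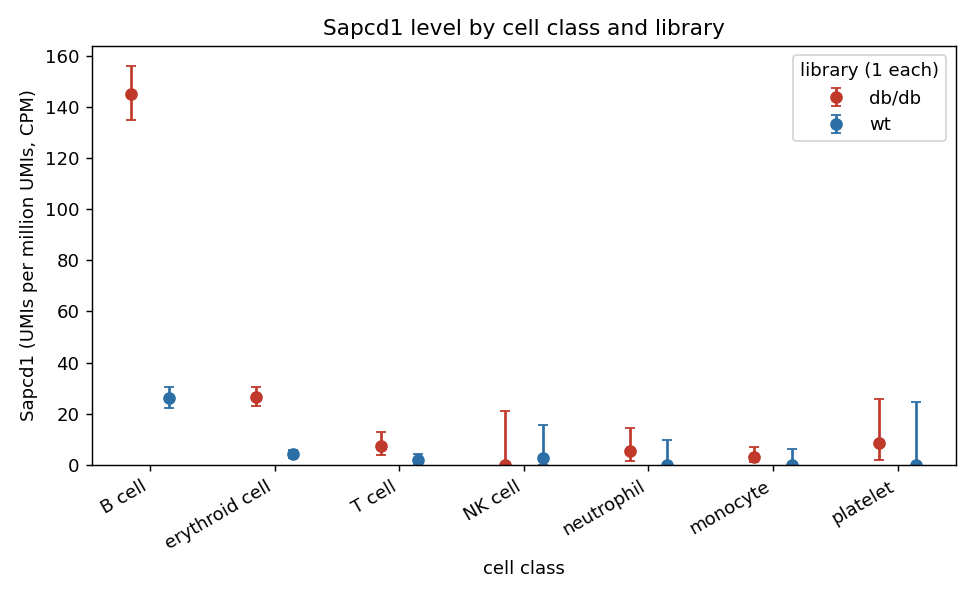
Sapcd1 level in CPM by cell class, with db/db in red left of wt in blue; bars are exact Poisson 95% intervals, counting error only, and each point is the sum over the cells of 1 library. B cells stand at 145 CPM in db/db and 26.2 CPM in wt, and the remaining classes shown lie at or below 26.5 CPM.

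Sapcd1 was highest in B cells among the named classes of each library. B cells made up 34.0% of kept db/db cells and held 65.9% of the Sapcd1 UMIs there. They made up 42.6% of kept wt cells and held 80.3% of the Sapcd1 UMIs. The level in B cells was 7.58 times that of the summed other named classes in db/db (6.54 to 8.81) and 8.30 times in wt (5.74 to 12.3). These intervals overlap between the genotypes. The size of both ratios depended on which cells were kept and how they were assigned, from 3.81 to 89.5 in db/db and from 4.03 to 31.1 in wt over the alternatives tried.

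Erythroid cells came next among the classes with at least 50 cells in each library, at 26.5 CPM (22.9 to 30.5; 194 UMIs) in db/db and 4.18 CPM (2.82 to 5.96; 30 UMIs) in wt. Within this class, cluster 1 held 184 of the db/db and 21 of the wt UMIs, at 60.6 CPM in db/db and 12.6 CPM in wt. Erythroid clusters 2, 5 and 13 had 10.4, 0.406 and 2.98 CPM in db/db, and 2.53, 0.807 and 0 CPM in wt. T cells were at 7.56 CPM (4.02 to 12.9; 13 UMIs) in db/db and 1.82 CPM (0.592 to 4.25; 5 UMIs) in wt. Platelets had 3 UMIs in db/db, or 8.80 CPM (1.82 to 25.7), and 0 in wt, neutrophils 4 and 0, monocytes 6 and 0, and natural killer cells 0 and 1. The levels of these 4 classes did not differ beyond their intervals in either library. With no UMI seen, wt neutrophils could still hold 8.10 CPM and wt monocytes 5.14 CPM, more than the 5.59 and 3.28 CPM seen in the same db/db classes, so no order of the genotypes can be read there. A cluster with kidney proximal tubule markers had 17 UMIs in 112 db/db cells, 53.7 CPM (31.3 to 86.0), and 0 in 3 wt cells. The 9 db/db basophils held 1 UMI and the 6 wt basophils none.

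The Sapcd1 UMIs outside the B cell clusters were found mostly in barcodes that also held B cell transcripts. The genes Cd79a and Cd79b encode the signalling parts of the B cell receptor complex, and Ms4a1 encodes the surface protein CD20. Of the Sapcd1 UMIs in kept cells outside the B cell clusters, 363 of 375 in db/db and 33 of 38 in wt were in barcodes with a UMI of these 3 genes. These cells include unnamed clusters 7 and 18, with 128 and 6 of the db/db Sapcd1 UMIs. The 3 genes took 4381 CPM in db/db and 4841 CPM in wt in cluster 7, and 5102 and 5501 CPM in cluster 18. The B cell clusters had 5508 CPM in db/db and 6030 CPM in wt. In the other named classes alone, 228 of 238 db/db and 31 of 36 wt Sapcd1 UMIs were in barcodes with a UMI of these genes. Over all kept barcodes, those with no such UMI held 12 Sapcd1 UMIs in 2413 db/db cells, 1.29 CPM (0.667 to 2.25), and 6 in 1740 wt cells, 0.897 CPM (0.329 to 1.95). Between genotypes that ratio was 1.44 (0.499 to 4.67). Kept barcodes with at least 1 such UMI held 1089 Sapcd1 UMIs in db/db, 98.2 CPM (92.5 to 104), and 187 in wt, 16.5 CPM (14.2 to 19.1). Both sums include the B cell clusters. Within a library, barcodes with B markers had 76.2 times the level of those without in db/db (43.4 to 148). In wt they had 18.4 times (8.30 to 50.8). Outside the B cell clusters, the levels with and without B markers were 59.7 and 1.29 CPM in db/db, and 6.07 and 0.751 CPM in wt.

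The classes differed in how far this held. Of the 194 Sapcd1 UMIs of db/db erythroid cells, 5 were in the 598 cells without a B marker UMI. Of the 30 in wt erythroid cells, 2 were. In erythroid cluster 1, the 3 B genes took 2289 CPM in db/db and 2492 CPM in wt. There, 12 of 705 db/db and 13 of 441 wt cells lacked a UMI of these genes. In the kidney-marker cluster, none of the 17 db/db UMIs was in the 48 cells without a B marker UMI. In db/db T cells 1 of 13 UMIs was in cells without one, and in wt T cells 3 of 5, while 3 of the 4 UMIs of db/db neutrophils were in cells without one.

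Set against the B markers, the Sapcd1 count was close between the named classes of a library that held more than a few UMIs. Per 1000 UMIs of the 3 B genes, db/db B cells had 26.3 Sapcd1 UMIs (24.4 to 28.3), db/db erythroid cells 26.9 (23.2 to 30.9), db/db T cells 24.3 (12.9 to 41.5) and the db/db kidney-marker cluster 23.5 (13.7 to 37.6). In wt the same quantity was 4.34 (3.69 to 5.08) in B cells, 5.30 (3.58 to 7.57) in erythroid cells and 9.36 (3.04 to 21.9) in T cells. The erythroid ratio between genotypes, 6.34 (4.30 to 9.66), and the T cell ratio, 4.15 (1.39 to 14.9), stood beside B marker transcripts in the same barcodes. With a mitochondrial limit of 5% the erythroid ratio was 0.962 (0.330 to 2.71), and with a minimum of 100 genes it was 1.65 (0.837 to 3.37). Whether free RNA or joined cells carried these UMIs was not tested.

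**Figure D2:**
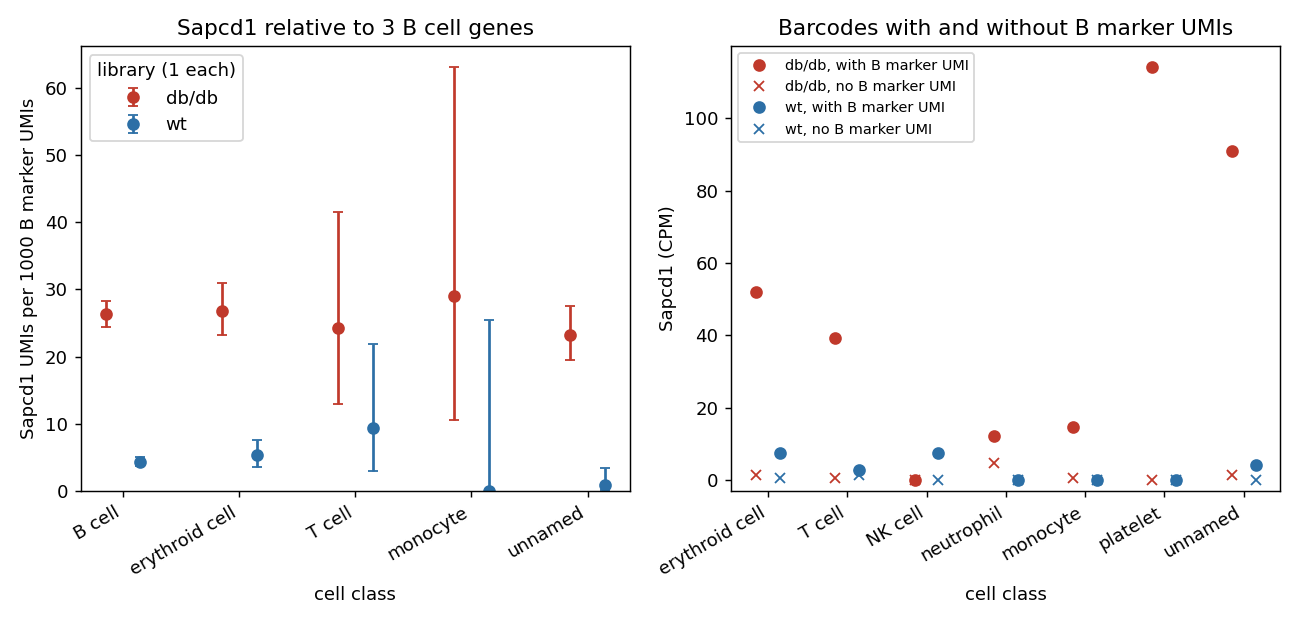
Left, Sapcd1 UMIs per 1000 UMIs of Cd79a, Cd79b and Ms4a1 by class, db/db in red left of wt in blue, with exact Poisson 95% intervals on the Sapcd1 count; db/db B and erythroid cells sit at 26.3 and 26.9, and wt B and erythroid cells at 4.34 and 5.30. Right, Sapcd1 CPM outside the B cell class in barcodes of each class with (circles) and without (crosses) a UMI of these genes, where the crosses lie at or below 4.73 CPM.

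Within B cells, every state defined from marker UMIs had a higher Sapcd1 level in db/db than in wt. States were assigned in order. First came cells with at least 3 platelet marker UMIs, then those with a Vpreb3 UMI. Next came cells with at least 2 UMIs of B1 and memory markers, counted without the immunoglobulin heavy chain genes. Cells with an Fcer2a UMI followed, and the remaining cells were grouped as other B cells. Vpreb3 is listed here among markers of transitional cells, but a Vpreb3 UMI alone does not make a cell transitional. Fcer2a encodes CD23 of follicular cells.
Vpreb3-positive cells had 159 CPM (142 to 177; 817 cells) in db/db and 31.1 CPM (24.5 to 38.9; 907 cells) in wt, a ratio of 5.11 (3.96 to 6.65). Fcer2a-positive cells had 137 CPM (115 to 162; 444 cells) in db/db and 20.3 CPM (14.2 to 28.1; 787 cells) in wt, a ratio of 6.77 (4.66 to 10.1). The intervals of both states stand apart between the genotypes.

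Cells with B1 and memory markers had 128 CPM (102 to 159) in db/db and 24.3 CPM (13.9 to 39.5) in wt, with 200 cells in each and a ratio of 5.28 (3.07 to 9.66). Other B cells had 146 CPM (125 to 170) in db/db and 24.9 CPM (15.8 to 37.3) in wt, a ratio of 5.88 (3.79 to 9.53). Platelet-carrying B cells, 81 in db/db and 38 in wt, had 104 CPM (68.0 to 153) and 36.0 CPM (9.80 to 92.1), from 26 and 4 UMIs. Their ratio, 2.90 (1.00 to 11.4), has a lower bound next to 1, and the intervals of the libraries overlap. Over 6 alternative cell filters and resolutions it ran from 1.65 to 9.52, and in 3 of them its interval included 1.

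Within a genotype the states lay close together. Vpreb3-positive over Fcer2a-positive cells gave 1.16 (0.942 to 1.42) in db/db and 1.53 (1.02 to 2.35) in wt. The ratios of the other 3 states to Fcer2a-positive cells had intervals that include 1 in both libraries. The order of levels in db/db was Vpreb3-positive, other, Fcer2a-positive, B1 and memory, then platelet-carrying cells, and neighbours in that order did not differ beyond their intervals.

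The B cell clusters, which were made without Sapcd1, showed a wider range. Cluster 9, with 78 db/db and 442 wt cells and led by Iglc1, Vpreb3 and Fam129c, had the highest level in both libraries, 289 CPM (221 to 372) in db/db and 46.0 CPM (34.9 to 59.6) in wt. Its ratio was 6.28 (4.30 to 9.19). Cluster 0, with 1626 db/db and 788 wt cells and led by MHC class II genes, had 144 CPM in db/db and 12.9 CPM in wt, and the ratio was 11.1 (7.45 to 17.3). Cluster 3, led by Ly6a and Zbtb20, had 122 CPM in 305 db/db cells and 32.1 CPM in 492 wt cells, a ratio of 3.80 (2.74 to 5.34). Cluster 4, led by Fchsd2, Cd55 and the ribosomal RNA-like transcript Gm42418, had 143 CPM in 69 db/db cells and 18.7 CPM in 718 wt cells, a ratio of 7.64 (3.78 to 15.2).
The intervals of the ratios in clusters 0 and 3 do not overlap. Genotype and cluster are uneven, since clusters 4 and 9 came mainly from wt. With both left out, the B cell ratio was 6.40 (5.05 to 8.22).

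When B cells were clustered alone, all 12 subclusters had a higher level in db/db, with ratios from 1.30 to 11.2. The smallest ratio, in a subcluster led by Gm42418, rested on 1 db/db and 5 wt UMIs and has an interval of 0.0275 to 11.6. The subcluster led by Igha and Ighg2b, constant regions of switched antibodies, had 116 CPM in 75 db/db cells and 67.2 CPM in 17 wt cells. Its ratio of 1.72 (0.519 to 8.95) rested on 23 and 3 UMIs. A subcluster led by Iglc1, Fam129c and Vpreb3 had 292 CPM in 52 db/db cells and 42.6 CPM in 401 wt cells.

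Light chain use gave one more split. B cells with at least 90% of their light chain UMIs from Igkc had 117 CPM (97.0 to 140) in 432 db/db cells and 12.5 CPM (6.26 to 22.4) in 440 wt cells. Cells with at least 90% from Iglc1, Iglc2 and Iglc3 had 127 CPM (75.3 to 201) in 59 db/db cells and 42.6 CPM (22.7 to 72.8) in 139 wt cells. Between the light chains the intervals overlap in db/db and stand apart in wt, on 13 lambda and 11 kappa UMIs. Most B cells, 1584 in db/db and 1844 in wt, held light chain UMIs of both kinds.

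**Figure D3:**
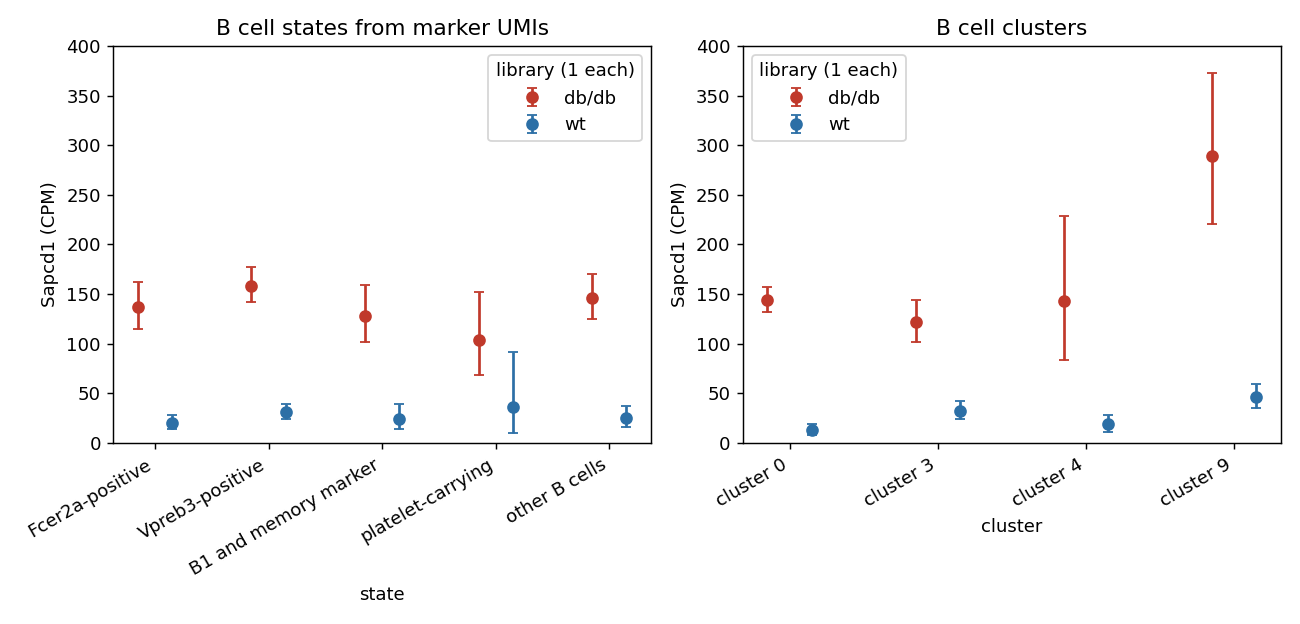
Sapcd1 level in CPM in B cells, by state from marker UMIs (left) and by cluster (right), db/db in red left of wt in blue; bars are exact Poisson 95% intervals and each point sums the cells of 1 library. The db/db points lie above the wt points in all 5 states and 4 clusters, and cluster 9 is highest in both libraries at 289 and 46.0 CPM.

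A gene was called between the libraries in B cells when it had at least 50 UMIs in the library where it was higher, a ratio of at least 2 or at most 0.5, and an interval that excluded 1. Of 7894 genes with enough UMIs, 62 (0.785%) were higher in db/db and 87 (1.1%) were lower, 1.89% in all. Sapcd1 met the rule, as its choice implies, and ranked 3 by log2 ratio of CPM plus 10, at 2.10. Above it stood Igha, the constant region of IgA, at 3.66 with 211 CPM in db/db and 7.44 CPM in wt, and Jchain, which joins IgA and IgM units, at 2.97 with 70.9 CPM in db/db and 0.338 CPM in wt.
Below it came Ptpn22, a phosphatase that restrains antigen receptor signalling, at 1.91, with 125 CPM in db/db and 25.9 CPM in wt. Gm10260 (1.75), Emb (1.71), Ighg2b (1.70) and Ddit4 (1.59) followed. Sapcd1 and Ptpn22, on different chromosomes, had a nearly equal pair of levels in these libraries.

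**Figure D4:**
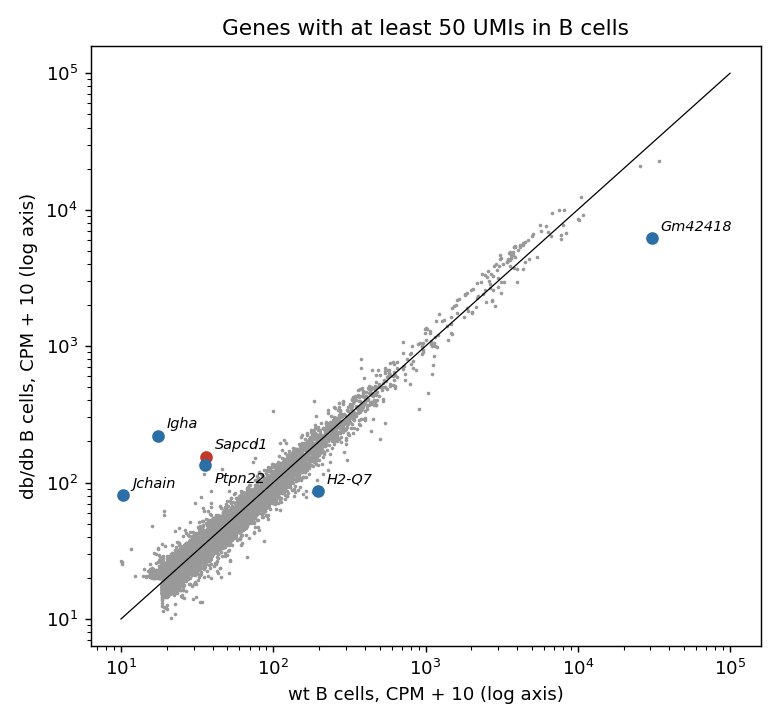
Each grey point is 1 of the 7894 genes with at least 50 UMIs in B cells of one library, with its wt level on the x axis and its db/db level on the y axis, both as CPM plus 10 on log axes; the line marks equal levels. Sapcd1 (red) lies beside Ptpn22 above the line, and Igha and Jchain lie farther from it.

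The neighbours of Sapcd1 on chromosome 17 were then read as its local background. Within 500 kb, 75 other genes are listed, 32 with enough UMIs in B cells. Of these, 0 were called higher in db/db, beside 0.785% of all genes tested, so that count says nothing particular to the neighbours. 2 neighbours were called lower, against 1.1% of all genes. Of the 32, 16 had a ratio over 1 and 16 under, and their median log2 ratio was 0.01, beside -0.03 for all genes tested. Within 100 kb, 9 genes had enough UMIs, 6 with a ratio over 1 and 3 under, and the median log2 ratio was 0.20. The 32 neighbours ran from -1.18 to 0.40. Sapcd1, at 2.10, was chosen for its difference, so its place above them follows from that choice and is only a description.

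On the side of the Vwa7 overlap, Vars, the valyl-tRNA synthetase, had 166 CPM in db/db and 133 CPM in wt B cells, a ratio of 1.25 (1.13 to 1.38). Lsm2, part of the ring that binds U6 small nuclear RNA, had 36.8 CPM in db/db and 30.6 CPM in wt (1.20; 0.973 to 1.48). Gm10501 had 1 and 4 UMIs, and Hspa1l, a heat shock protein of the Hsp70 family, 1 and 0. On the other side Msh5, a meiotic MutS homologue, had 11.4 CPM from 57 UMIs in db/db and 7.10 CPM from 42 UMIs in wt, a ratio of 1.60 (1.06 to 2.45).
Clic1, an intracellular chloride channel protein, had 388 CPM in db/db and 359 CPM in wt (1.08; 1.02 to 1.15). Ddah2, of the dimethylarginine hydrolase family, had 36 UMIs in db/db and 51 in wt, a ratio of 0.834 (0.529 to 1.30). Mpig6b, a platelet receptor, had 6 UMIs in each, and Ly6g6c, of the Ly6 surface protein family, had 12 in db/db and 3 in wt, a ratio of 4.73 (1.28 to 26.1). Of these 10 nearest genes 5 had enough UMIs to be called, and none of the 5 was, beside 1.89% of all genes tested. Of the 10, the 4 with an interval above 1 are Vars, Msh5, Clic1 and Ly6g6c.

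Msh5, the nearest gene on the same strand, was rare in B cells with and without Sapcd1. In db/db B cells, 3.29% (1.93 to 5.22) of the 516 cells with a Sapcd1 UMI had a Msh5 UMI, beside 2.50% (1.78 to 3.40) of the 1562 without. In wt the shares were 4.65% (1.73 to 9.85) of 129 cells and 1.56% (1.09 to 2.15) of 2311, and the wt cells with a Sapcd1 UMI were also deeper, at medians of 2870 and 2256 UMIs. The Msh5 level in B cells and in T cells was 11.4 and 1.74 CPM in db/db and 7.10 and 1.46 CPM in wt. Clic1 was as high in monocytes as in B cells or higher, at 562 CPM in db/db monocytes and 559 CPM in wt monocytes.

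The 2 neighbours called lower were H2-Q6 and H2-Q7, nonclassical MHC class I genes 397 and 411 kb away. H2-Q6 had 68.5 CPM in db/db and 153 CPM in wt B cells, a ratio of 0.448 (0.394 to 0.508). H2-Q7 had 77.1 CPM in db/db and 187 CPM in wt, a ratio of 0.412 (0.366 to 0.464). They are near-identical copies whose reads can be split or discarded by an aligner, so their values are uncertain. In B cell states the H2-Q6 ratio ran from 0.339 to 0.583 and the H2-Q7 ratio from 0.350 to 0.604. Along all of chromosome 17, 411 genes other than Sapcd1 had enough UMIs, of which 6 were higher and 6 lower, beside 0.785% and 1.1% of all genes.

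**Figure D5:**
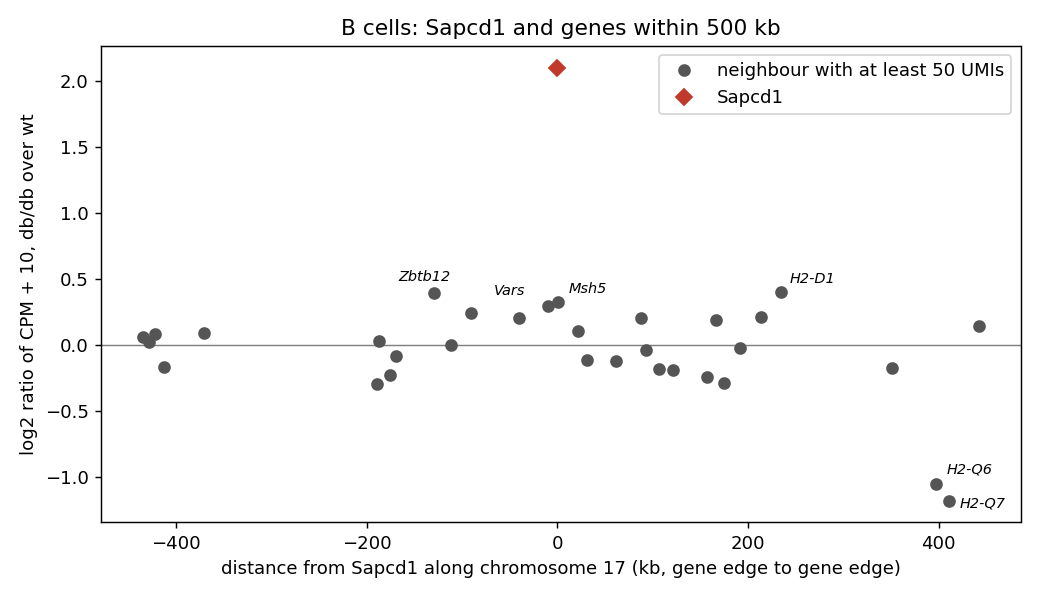
B cell log2 ratio (db/db over wt, from CPM with 10 added) for Sapcd1 (red diamond, at 0 kb) and the 32 neighbours with at least 50 UMIs (grey), against the distance between gene edges in kb. The neighbours scatter between -1.18 and 0.40, and Sapcd1, which was chosen for its difference, stands at 2.10.

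Genes with the profile most like that of Sapcd1 were sought by the Pearson correlation of log2(CPM + 10) over 14 profiles, the 7 classes with at least 50 cells in each library times both libraries. These points share libraries, depth and free RNA, and 7518 genes were compared. The nearest were Pcp4 (r = 0.963), Hs3st1 (0.961), Ighg2b (0.943), Fkbp11 (0.931), Igha (0.930), Rab30 (0.905), Jchain (0.901), Ddx25 (0.898), Ighg1 (0.889) and Cnn3 (0.887). Of these, Pcp4, a calmodulin-binding protein, had 13.4 CPM in db/db and 4.23 CPM in wt B cells, and Hs3st1, a heparan sulphate sulphotransferase, had 36.2 CPM in db/db and 14.2 CPM in wt.
Over the 10 profiles of 5 B cell states in both libraries, the nearest were Ston1 (0.985), Zfp36l2 (0.980) and H2-D1 (0.973). All 3 lie on chromosome 17, which holds 411 of the 7894 genes with enough UMIs, Sapcd1 not counted. Ston1 lies 53570 kb and Zfp36l2 49156 kb from Sapcd1, and H2-D1 lies within 500 kb. Ston1, an endocytic adaptor, had 83 UMIs in db/db B cells and 0 in wt. Zfp36l2, an RNA-binding protein that promotes mRNA decay, had 676 CPM in db/db and 366 CPM in wt, and H2-D1, a classical MHC class I gene, had 2405 CPM in db/db and 1819 CPM in wt. The 10 points fall into 2 libraries, so a gene with a step between the libraries scores high on this measure.

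Genes of the proteins around APC, the namesake of the Sapcd1 domain, were read as a list. Of 18 measured genes of the APC and beta-catenin destruction complex, 15 had enough UMIs and 0 were called in either direction, where 1.89% of all genes were, so the count says nothing particular to the list. Their median log2 ratio was -0.04 beside -0.03 for all genes. Apc had 93.3 CPM in db/db and 95.7 CPM in wt, and Ctnnb1, which encodes beta-catenin, had 72.5 CPM in db/db and 73.7 CPM in wt. Gsk3b, the kinase that marks beta-catenin, had 128 CPM in both. Among the 15, the lowest ratio was that of Btrc, a ubiquitin ligase subunit, at 0.603 (0.470 to 0.770), and the highest that of Siah1a, also a ubiquitin ligase, with an interval of 1.16 to 1.93.

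Of 15 genes for microtubule and spindle partners, 8 had enough UMIs and 0 were called, beside the same 1.89%, with a median of -0.04. Mapre1, which binds growing microtubule ends and APC, had 109 CPM in db/db and 104 CPM in wt. Sapcd2 had 0 UMIs in B cells of both libraries. Of 12 Wnt target genes 3 had enough UMIs, and 1, Lef1, a transcription factor of this pathway, was called lower (1.1% of all genes were) at 2.60 CPM in db/db and 10.1 CPM in wt, a ratio of 0.256 (0.129 to 0.472). Ccnd2, a cyclin of the cell cycle, had 43.9 CPM in db/db and 82.0 CPM in wt and was not called, and Myc had 23.0 and 24.0 CPM. Axin2, a common reporter of the pathway, had 0 UMIs in both.

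Other measures moved with genotype in the same B cells, and their part in the Sapcd1 difference was not tested. The 13 platelet markers summed to 186 CPM in db/db and 97.5 CPM in wt B cells, and of 6 with enough UMIs 3 were called higher and 1 lower, beside 0.785% and 1.1% of all genes. Where only B cells without a platelet marker UMI were used, the Sapcd1 ratio was 7.38 (5.94 to 9.25). The 7 transitional markers summed to 447 CPM in db/db and 734 CPM in wt, with Cd93, Sox4 and Myb called lower of 5 with enough UMIs. The 16 B1 and memory markers summed to 782 CPM in db/db and 364 CPM in wt, with Cd9, Ighg1, Ighg2b, Ighg3 and Igha called higher of 10 with enough UMIs. The B1 and memory state was set without the heavy chain genes of this list. Sapcd1 in cells of that state was 0.935 times that in Fcer2a-positive cells in db/db (0.703 to 1.24) and 1.20 times in wt (0.622 to 2.22).
Kidney tubule markers summed to 33.8 CPM in db/db and 2.54 CPM in wt B cells. Haemoglobin took 4.03% of B cell UMIs in db/db and 4.90% in wt, the median mitochondrial share was 4.03% in db/db and 5.12% in wt, and the median share of Gm42418 was 0.436% in db/db and 2.77% in wt. With haemoglobin, mitochondrial and Gm42418 UMIs taken out of the total, the Sapcd1 ratio was 5.28 (4.43 to 6.32). Cells with markers of several lineages numbered 109 db/db and 51 wt B cells, and without them it was 5.68 (4.75 to 6.83).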

How the data were processed

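Per the labels and file headers, the authors deposited raw counts (whole UMI numbers for each gene in each barcode) for 1 library of each genotype, made with Cell Ranger 3.0.2 on mm10 per the submitters' processing notes. Annotation, strand setting and cell calling: not given in the sources used here. The mice are C57BLKs/J and mm10 is a C57BL/6J genome, and the effect of this on the counts was not tested. Of 31053 features, 30934 matched GENCODE M21 by ID, and 119 did not.

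Kept cells of both libraries were brought to 10000 counts each, logged and clustered jointly in scanpy 1.11.5 (2000 variable genes, 30 components, 15 neighbours, Leiden resolution 1 with leidenalg 0.10.2), without Sapcd1 and genes within 1000 kb. Clusters were named from marker lists. A name needed 3 markers among the 50 leading genes and no other class with more markers among the first 10. A cluster of low UMI count also needed a marker among those 10. Unnamed clusters 7 and 11 had 8 and 9 markers of their best class among the 50 but 0 among the 10. No doublet caller was used; cells with at least 2 UMIs of markers of several lineages were left out in an alternative. UMIs were summed per class and library, with exact Poisson intervals on CPM, exact conditional binomial intervals on ratios and Clopper-Pearson intervals on shares. Where a sum was 0, 3 counts were taken as its upper limit. The intervals and limits cover counting error only. One marker of the B cell list is not reported here. The scripts were tested on simulated data. Python 3.11.15, numpy 2.4.6, scipy 1.17.1 and pandas 2.3.3 were used.

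The gene, the lists and the states were chosen with earlier results of these data known. Genes named are Sapcd1, the 5 nearest genes on each side, neighbours called within 500 kb, the 10 and 3 genes of the most similar profile, those next to Sapcd1 in rank, and members of the lists. Sapcd2, Axin2, Cd3e and the light chain split were added after values were seen. Alternatives changed the cell filters, resolution, definition of B cells, thinning depth, scaling, window and calling rule.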

Additional observations from a re-analysis of the deposited data

Results flagged for a closer look

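Kept cells of no named class held a Sapcd1 signal in db/db that no comparison of classes covers. Their level was 46.5 CPM (39.1 to 55.0; 137 UMIs in 871 cells) in db/db, against 2.89 CPM (0.350 to 10.4; 2 UMIs in 244 cells) in wt. Of the db/db UMIs, 128 were in cluster 7, which was led by the platelet genes Nrgn, Gng11 and Gp9 with the MHC class II gene H2-Aa and also carried B markers, at 104 CPM in 463 db/db cells and 4.25 CPM in 81 wt cells. In all, 135 of the 137 db/db UMIs were in barcodes with a B marker UMI. Per 1000 UMIs of Cd79a, Cd79b and Ms4a1 the unnamed cells had 23.3 Sapcd1 UMIs (19.6 to 27.5) in db/db and 0.947 (0.115 to 3.42) in wt, where B cells had 26.3 in db/db and 4.34 in wt.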

How the results depend on the processing

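The Sapcd1 ratio in B cells ran from 5.08 to 11.1 over 15 alternatives around its value of 5.54, and was higher in db/db in each. Of 3 chosen after seeing the data, 2 moved it beyond its interval, to 11.1 with only the largest B cell cluster and to 7.38 with only B cells that had no platelet marker UMI. The ratio of thinned shares ran from 4.40 to 6.54 over 11. The ratio of B cells to other classes stayed over 1 but depended on how cells were kept and assigned, and the cause was not tested. For db/db it moved from 7.58 to 14.2 at resolution 2, 58.0 with a minimum of 100 genes, 4.27 with 500 genes, 24.3 at a mitochondrial limit of 5%, 89.5 with B cells taken from marker UMIs, 6.22 with equal weight per cell and 3.81 without haemoglobin, mitochondrial and Gm42418 UMIs. For wt it moved from 8.30 to 31.1 with 100 genes, 12.7 at 5%, 21.5 with marker UMIs, 5.35 with equal weight and 4.03 with the reduced total. The number of neighbours called, 2, became 0 in a 250 kb window, 4 within 1 Mb, 5 at a ratio of 1.5 and 4 at a minimum of 20 UMIs, and was 2 in the other 11. The erythroid ratio fell from 6.34 to 0.962 (0.330 to 2.71) at a mitochondrial limit of 5%, where its interval includes 1. It was 1.65 (0.837 to 3.37) with a minimum of 100 genes and 4.16 at resolution 2. The T cell ratio ran from 3.96 to 6.98. The platelet-carrying B cell ratio of 2.90 ran from 1.65 to 9.52, with an interval that included 1 at resolution 0.5, with 500 genes and at a limit of 20%. The other 4 states ran from 4.14 to 8.57. Clusters of B cells alone match no state one to one, so the median ratio was compared, 5.28 over states and 5.63 over subclusters. No paired analysis was possible because each genotype has 1 library. Counts of a few UMIs limit wt values outside B cells.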

Other observations

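Barcodes that the filter removed also held Sapcd1. Those removed for 10% or more mitochondrial UMIs had 11.9 CPM (6.16 to 20.8) in 374 db/db barcodes and 16.4 CPM (11.0 to 23.6) in 1849 wt barcodes. The 3 B genes (Cd79a, Cd79b and Ms4a1) took 399 CPM of these in db/db and 2459 CPM in wt, so that per 1000 UMIs of these genes there were 29.9 Sapcd1 UMIs (15.4 to 52.1) in db/db and 6.67 (4.47 to 9.58) in wt. Barcodes removed for having under 200 genes had 37.4 (24.8 to 54.0) in db/db and 8.74 (4.36 to 15.6) in wt on the same scale. These values rest on 28 db/db and 11 wt Sapcd1 UMIs. Unlike in the kept cells, most of them, 21 in db/db and 7 in wt, were in barcodes with no UMI of the B genes.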
